A study of Mus musculus with 2 samples.

Results

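The collagen chain genes of the mouse lacrimal gland were examined at embryonic day 16 (E16) and postnatal day 4 (P4). Members were all genes whose symbol reads Col, a number, a and a number, and this rule found 44 genes among 27775 features. The study sequenced single cells of wild-type CD1 glands, the glands that secrete the aqueous part of tears, with 1 library for E16 and 1 library for P4. Dissected glands were pooled, with the number of animals not stated, and dissociated with the enzyme mix Liberase TM, which contains collagenase, and DNase I. Neither library's labels give a treatment, a mutation or a sort. With 1 library per stage no test between stages was possible: every interval below is an exact 95% interval that covers counting error only, and differences between animals or dissociations cannot be told apart from differences between stages.

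Collagens are trimers of chains that wind into a triple helix, and each chain has its own gene. Fibrillar chains (types I, II, III, V and XI, with Col24a1 and Col27a1) build the fibrils of connective tissue, and type IV chains form the network of basement membranes under epithelia and around vessels. FACIT chains decorate fibrils, type VI chains form beaded filaments, and multiplexins (Col15a1, Col18a1) sit in basement membrane zones. In a branching gland such as the lacrimal gland, mesenchyme is known as the main source of fibrillar collagen, while epithelium and mesenchyme both contribute to the basement membrane between them. The 44 members were 11 fibrillar, 6 basement membrane, 9 FACIT, 6 beaded filament, 2 multiplexin, 3 network-forming and 4 transmembrane chains, with 1 anchoring fibril chain and 2 others.

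Promoter sequence from RefSeq (GRCm38.p6, the build of the mm10 alignment) was found for 35 of the 44 genes, in 38 windows that ran from 250 bases before to 50 bases after a start. The 250 bases before the start are shown for the genes that carry the main contrasts: Col3a1 and Col1a2, the fibrillar chains that moved together in mesenchyme, and Col9a1, the chain that marked E16 epithelium and has 2 starts in the annotation. All 3 genes lie on the forward strand, and capitals mark exact matches on either strand to 3 common promoter motifs. The first motif searched was CCAAT. The second was the TATA-box core TATAAA. The third, bound by Sp1-type factors, was GGGCGG.
Col3a1, chr1:45311288-45311537: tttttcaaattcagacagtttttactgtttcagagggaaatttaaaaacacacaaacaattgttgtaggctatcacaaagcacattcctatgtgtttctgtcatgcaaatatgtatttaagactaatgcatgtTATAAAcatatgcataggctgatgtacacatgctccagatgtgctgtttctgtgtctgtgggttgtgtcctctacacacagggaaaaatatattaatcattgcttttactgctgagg
Col1a2, chr6:4505368-4505617: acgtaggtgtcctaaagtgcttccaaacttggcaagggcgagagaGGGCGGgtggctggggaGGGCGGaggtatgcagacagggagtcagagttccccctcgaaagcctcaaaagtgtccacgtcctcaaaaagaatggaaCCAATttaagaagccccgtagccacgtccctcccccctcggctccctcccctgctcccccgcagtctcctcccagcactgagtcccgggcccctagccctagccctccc
Col9a1, first start, chr1:24177360-24177609: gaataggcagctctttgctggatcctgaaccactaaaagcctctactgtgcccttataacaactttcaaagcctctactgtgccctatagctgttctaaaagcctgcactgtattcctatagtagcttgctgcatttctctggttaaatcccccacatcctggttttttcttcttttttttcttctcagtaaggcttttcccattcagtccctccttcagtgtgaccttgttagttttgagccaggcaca
Col9a1, second start, chr1:24194953-24195202: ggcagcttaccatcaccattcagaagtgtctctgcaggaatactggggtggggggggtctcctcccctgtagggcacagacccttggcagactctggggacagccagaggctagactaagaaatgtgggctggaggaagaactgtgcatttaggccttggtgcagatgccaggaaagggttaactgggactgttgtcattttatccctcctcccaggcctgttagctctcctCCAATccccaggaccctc

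Col1a2 and Col3a1 shared none of these motifs in the bases shown: Col1a2 held 1 CCAAT and 2 GGGCGG matches at 62.0% GC, and Col3a1 held 1 TATAAA match at 35.2% GC. Over the whole windows, CCAAT was found in 13 of 38 collagen windows (34.2%) and in 37.4% of 32851 windows of all genes. TATAAA was found in 5 of 38 (13.2%, against 13.6% of all windows), and GGGCGG in 23 of 38 (60.5%, against 35.7%). These matches are a description of letters, and the gene-level counts do not tell which Col9a1 start was used.

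Several members are neighbours in the genome (GENCODE annotation, GRCm38). Col4a1 (reverse strand, chromosome 8, 11198423 to 11312826) and Col4a2 (forward strand, 11312805 to 11449287) point away from each other, with starts 21 bases apart. The 30 bases around both starts are shown on the forward strand because these 2 chains pair in one trimer, and capitals run from the start of Col4a2 to the start of Col4a1.
Col4a2 and Col4a1, chr8:11312801-11312830: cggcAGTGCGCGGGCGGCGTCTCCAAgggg
Col4a4 and Col4a3 on chromosome 1 and Col4a6 and Col4a5 on the X chromosome have the same head-to-head arrangement, with 72 and 1309 bases between them. Col3a1 (chromosome 1, 45311538 to 45349706) and Col5a2 (45374321 to 45503282) lie tail to tail. Col1a1 lies on chromosome 11 (94936224 to 94953042) and Col1a2 on chromosome 6 (4504814 to 4541544), so the 2 chains of type I collagen are not neighbours. The Col1a2 bases shown above lie before its RefSeq start (4505618), which falls inside this GENCODE span.

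Barcodes with at least 200 detected genes were kept as cells, 259 of 437 in E16 and 406 of 687 in P4, and no barcode was shared by the libraries. Kept cells held 1711606 unique molecular identifiers (UMIs, counts of distinct RNA molecules) in E16 and 1975814 in P4, with medians of 5802 and 3767 UMIs per cell. Among barcodes under 200 genes, haemoglobin genes took a median of 95.9% of UMIs in E16 and 95.7% in P4. Cells were clustered without any collagen gene, so members did not choose the classes, although genes that vary with collagen did take part. Clusters were named by marker lists: mesenchyme-like (98 cells in E16, 177 in P4), epithelial-like (87 and 98), mural or smooth muscle-like (16 and 9), endothelial-like (10 and 22) and glial-like (6 and 4). Macrophage-like cells numbered 1 and 47, and the remaining cells were mast, erythroid, Cd74 myeloid or T or innate lymphoid-like. Different clusters held most of a class in each library: E16 mesenchyme lay mainly in clusters 1 and 2 and P4 mesenchyme in clusters 7, 11 and 13. Scrublet called 1 doublet in E16 and 0 in P4, too few to show that it worked, and all cells were retained, so cells that mix 2 types may remain.

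Levels below are CPM, the UMIs of a gene scaled to the UMIs summed over a class, not divided by gene length, since 1 UMI stands for 1 tagged molecule. Of the 44 members, 39 had a UMI in kept E16 cells and 35 in kept P4 cells, and 22 and 20 reached 30 UMIs. Col11a2, Col6a4, Col10a1 and Col28a1 had 0 UMIs in the kept cells of both libraries. Collagen genes took 11264 UMIs in E16 (0.658%) and 28051 in P4 (1.42%). Mesenchyme-like cells held 8747 and 26305 of these.

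**Figure D1:**
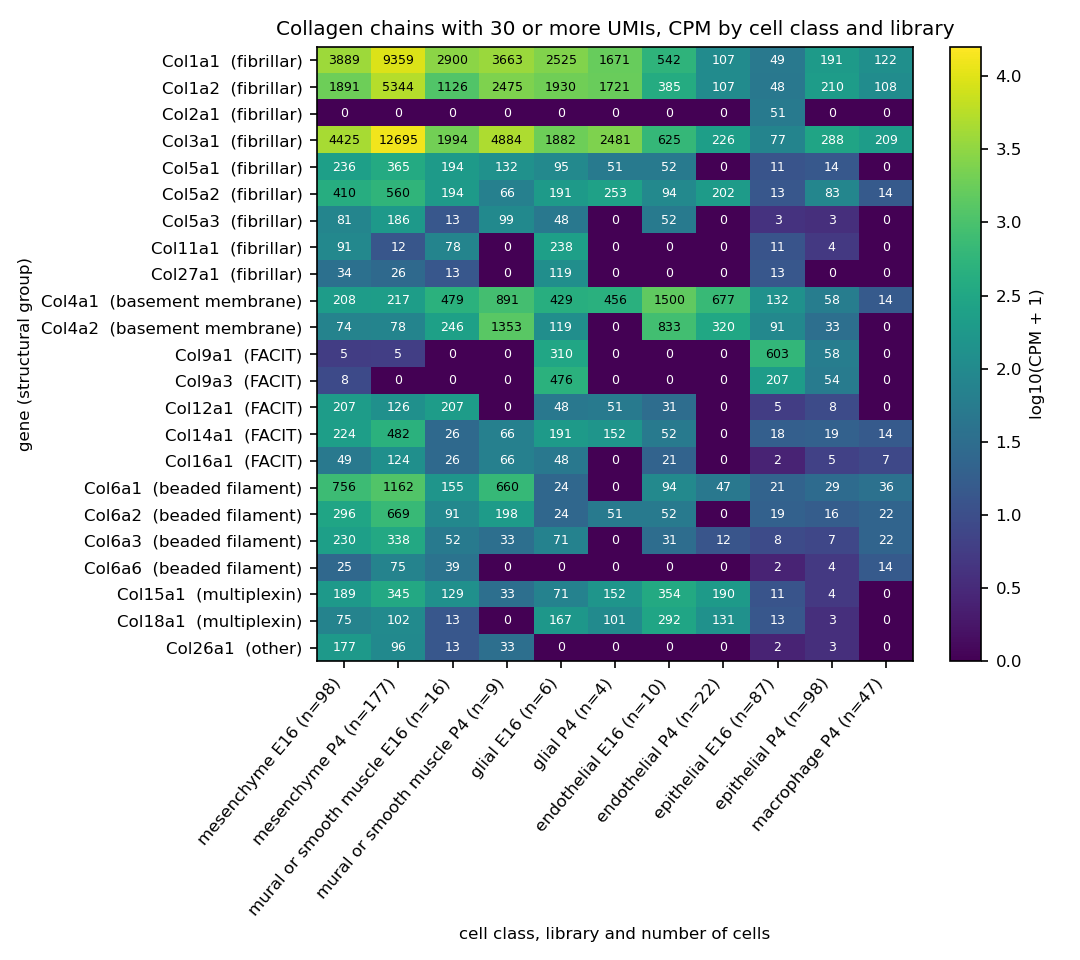
Levels of the collagen chains with at least 30 UMIs over both libraries. Rows are genes with their structural group, columns are cell classes and libraries with the number of cells, the printed number is the CPM of the class sum and the colour its log10(CPM + 1). Col1a1, Col1a2 and Col3a1 lead in mesenchyme, Col9a1 and Col9a3 in E16 epithelial and glial-like cells, and Col4a1 and Col4a2 in E16 endothelial and P4 mural cells. In P4 mural cells 1 cell held 90.2% of the 41 Col4a2 UMIs.

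Collagen took a larger share of RNA in P4 mesenchyme than in E16 mesenchyme. It made up 1.37% of mesenchyme UMIs in E16 (1.34% to 1.40%) and 3.24% in P4 (3.20% to 3.28%), 2.37 times as much (2.31 to 2.42). Epithelial-like cells held 0.149% in E16 and 0.112% in P4, a ratio of 0.749 (0.682 to 0.824). That ratio was 0.982 with genes above 1% of UMIs left out of the totals, 0.782 (0.579 to 1.05) within cluster 0 and 1.66 (1.04 to 2.80) within cluster 9. One P4 cell with many mesenchyme marker UMIs gave 301 of the 825 collagen UMIs of P4 epithelium, and the median of all measured epithelial genes was itself -0.53 on the log2 scale. The direction in epithelium therefore depended on the totals and on the cluster. Endothelial-like cells held 0.502% in E16 and 0.204% in P4, a ratio of 0.407 (0.340 to 0.485). In mural or smooth muscle-like cells the shares were 0.801% and 1.47%, a ratio of 1.83 (1.62 to 2.07). There 1 cell gave 203 of 619 collagen UMIs in E16, and 1 cell gave 172 of 444 in P4. Glial-like cells held 0.908% and 0.724%, from 6 and 4 cells. Macrophage-like cells in P4 held 0.0583% (0.0463% to 0.0725%), and P4 barcodes under 200 genes held 0.0396% (0.0352% to 0.0444%).

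The make-up of the collagen message also differed. Type I and III chains (Col1a1, Col1a2, Col3a1) gave 74.5% of collagen UMIs in E16 mesenchyme and 84.6% in P4 mesenchyme. In epithelial-like cells they gave 11.6% in E16 and 61.6% in P4. A single P4 cell rich in mesenchyme markers gave 66 Col1a1, 73 Col1a2 and 77 Col3a1 UMIs there. It held 301 of the 825 collagen UMIs that the P4 epithelial shares rest on. Col1a1 and Col3a1 were not detectable in P4 epithelial-like cells above their level in macrophage-like cells, as given below. FACIT chains took 56.7% of the collagen UMIs of E16 epithelium, against 13.5% in P4 epithelium and 3.69% in E16 mesenchyme. Endothelial-like cells drew 46.5% of their collagen UMIs from basement membrane chains in E16 and 49.4% in P4.

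A total of 8 fibrillar chains could be compared in mesenchyme-like cells, and the 3 chains of types I and III were all higher in P4. Col3a1, the type III chain of elastic tissues, had 2826 UMIs in E16 and 10306 in P4, or 4425 and 12695 CPM. Its P4 level was 2.87 times its E16 level (2.75 to 2.99). Col1a1, which supplies 2 of the 3 strands of type I collagen, went from 3889 to 9359 CPM, 2.41 times higher (2.30 to 2.52). Col1a2, the partner strand, went from 1891 to 5344 CPM, 2.83 times higher (2.65 to 3.01). UMIs of Col1a1 were found in 93 of 98 E16 mesenchyme cells and in all 177 of P4, and no cell held more than 3.55% of its UMIs in P4. In both libraries nearly every mesenchyme cell thus held Col1a1, and what differed over the whole class was its level. Within clusters 2, 7 and 11 its stage ratio had an interval that spans 1, as given below.

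Of 20 members with at least 30 UMIs over both mesenchyme sums, 8 reached a 2-fold higher level in P4, against 6.93% of all 5711 genes measured in the same way. With each library clustered alone the count was 5, and the share of all genes was not computed for that setting. One member, Col11a1, was at least 2-fold lower, against 13.6% of all genes. The median difference of the 20 members was 0.62 on the log2 scale (P4 minus E16), and that of all measured genes was -0.18. The summed level of the 14 mesenchyme markers, none of them a collagen, moved the same way, from 8363 CPM in E16 to 20884 CPM in P4, and its part in the result was not tested.

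**Figure D2:**
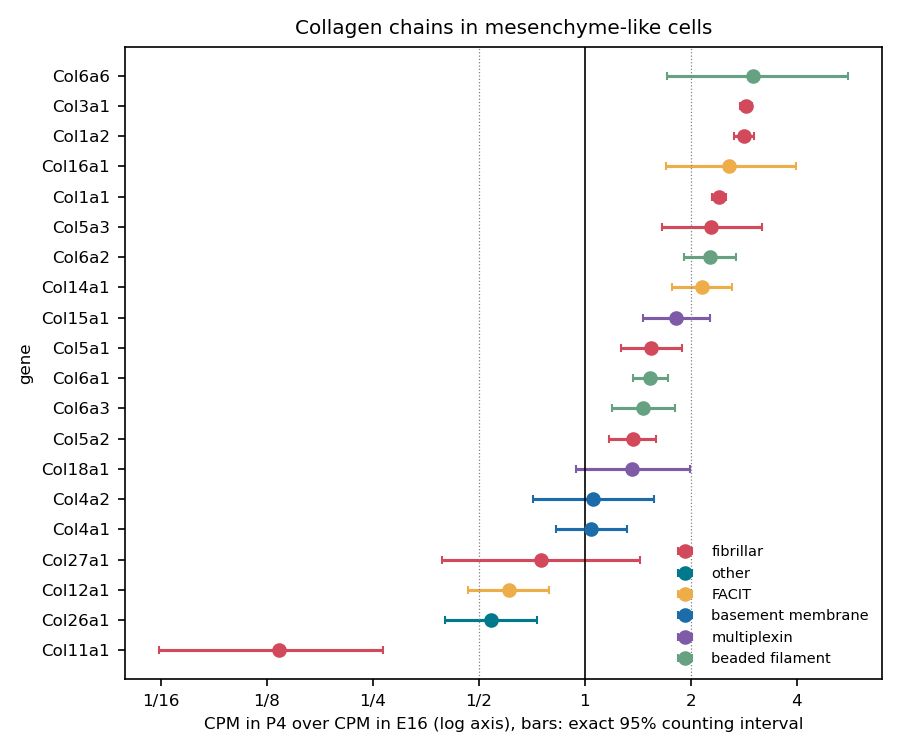
Stage ratio of each collagen chain in mesenchyme-like cells. Points give CPM in P4 over CPM in E16 on a log axis, bars the exact 95% counting interval, colours the structural group, and dotted lines mark 2-fold; the 8 chains at the top lie above 2 and Col11a1 lies at 0.14.

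For summed collagen and for Col1a1 and Col3a1, clusters that held at least 5 cells of both libraries gave smaller stage ratios than the whole class. In cluster 2 (59 E16 and 9 P4 cells), led by Kera and Dlk1, the ratio of summed collagen was 1.23 (1.14 to 1.32). In cluster 7 (9 and 72 cells) it was 1.30 (1.20 to 1.42), and in cluster 11 (5 and 51 cells), led by Mfap5 and Clec3b, it was 1.07 (0.984 to 1.15). For Col1a1 the ratios were 1.09 (0.94 to 1.27), 0.90 (0.78 to 1.03) and 0.96 (0.83 to 1.11) in these clusters. Col3a1 gave 1.18, 1.52 and 1.15, with intervals of 1.03 to 1.35, 1.30 to 1.80 and 1.01 to 1.31. Cluster 13 held 41 P4 cells and 2 E16 cells, and its P4 cells had the highest levels of any cluster, 17534 CPM of Col1a1 and 24043 CPM of Col3a1. Cluster 2, by contrast, held 3686 and 4183 CPM in its E16 cells. The class ratio of 2.37 for summed collagen was therefore not seen within clusters 2, 7 or 11, and which clusters a library filled differed between the libraries. Some other chains had larger ratios inside single clusters than over the class, as given with each below.

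The quantitatively minor fibrillar chains split. Col5a1, Col5a2 and Col5a3 encode type V collagen, which starts and limits type I fibrils. Col5a3 had 52 UMIs in E16 and 151 in P4, 2.28 times higher in CPM (1.66 to 3.19). Col5a1 and Col5a2 stayed under 2-fold, at 1.54 (1.26 to 1.89) and 1.37 (1.17 to 1.60). Col11a1, a chain of type XI collagen that has a like part in cartilage fibrils, had 58 UMIs in 34 E16 cells and 10 UMIs in 9 P4 cells. From 90.8 CPM it went to 12.3 CPM, 7.37-fold lower (3.74 to 16.2). Within cluster 2 the 59 E16 cells held 35 Col11a1 UMIs and the 9 P4 cells held 0. Col27a1 gave 22 and 21 UMIs, a ratio of 0.75 whose interval spans 1 (0.39 to 1.43).

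Among FACIT chains in mesenchyme, Col14a1 and Col16a1 were higher in P4. Col14a1, which binds fibrils through decorin, went from 224 to 482 CPM, 2.15 times higher (1.77 to 2.62). Col16a1 went from 48.5 to 124 CPM, 2.56 times higher (1.70 to 3.97). Col12a1, found in dense connective tissue, lay on the other side at 0.61 (0.46 to 0.79), and 1 E16 cell held 30.3% of its 132 E16 UMIs. The 3 chains therefore did not move as 1 group.

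The 3 main chains of type VI collagen, the beaded filaments around cells, were all higher in P4 mesenchyme, with 1 past 2-fold. Col6a2 had 189 and 543 UMIs, a ratio of 2.26 (1.91 to 2.68). Col6a1 went from 756 to 1162 CPM, a ratio of 1.54 (1.37 to 1.72), and Col6a3 at 230 and 338 CPM, a ratio of 1.47 (1.20 to 1.80). Col6a6, an alternative to the third chain, had 16 and 61 UMIs, a ratio of 3.0 (1.71 to 5.57). Within cluster 7 the ratio was 3.01 for Col6a2 (1.55 to 6.69) and 2.11 for Col6a1 (1.39 to 3.38), from 9 and 23 E16 UMIs. In clusters 2 and 11 both lay under their class ratios, at 1.83 and 1.92 for Col6a2 and 1.42 and 1.16 for Col6a1. Col6a3 gave 1.75, 1.09 and 1.94 in clusters 2, 7 and 11. Col6a5 had 5 and 3 UMIs in mesenchyme.

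Over the whole mesenchyme class, basement membrane chains lay near 1. Col4a1 was measured at 208 CPM in E16 mesenchyme and at 217 CPM after birth, a ratio of 1.04 (0.83 to 1.31). Col4a2 stood at 73.6 and 77.6 CPM, a ratio of 1.05 (0.71 to 1.57). In cluster 2 Col4a1 gave 1.86 (1.04 to 3.17) and Col4a2 2.63 (1.18 to 5.42), from 18 and 11 P4 UMIs. The 9 P4 cells there included 1 with 33.3% of these Col4a1 UMIs and 1 with 36.4% of these Col4a2 UMIs. Col4a1 gave 2.01 in cluster 7 (0.82 to 6.38) and 0.65 in cluster 11 (0.26 to 2.10), each with 5 E16 UMIs. Both of these intervals span 1. Col4a2 had 0 and 1 E16 UMIs in clusters 7 and 11, too few for the ratio rule. The multiplexin Col15a1, which links fibrils to basement membranes, went from 189 to 345 CPM, a ratio of 1.82 (1.47 to 2.27). Col18a1, the source of the fragment endostatin, gave 1.36 with an interval that spans 1 (0.94 to 1.98). Both were further apart within single clusters. Col15a1 gave 2.62 in cluster 2 (1.67 to 4.0) and 4.62 in cluster 7 (1.94 to 14.4). Col18a1 gave 2.77 in cluster 2 (1.29 to 5.57). In cluster 11 the E16 cells held 0 Col15a1 UMIs and the P4 cells 66. Col26a1 was lower in P4 over the class, at 177 and 96.1 CPM, a ratio of 0.54 (0.40 to 0.73). It gave 0.47 in cluster 2 (0.17 to 1.06) but 3.59 in cluster 7 (0.94 to 30.4), from 2 E16 and 50 P4 UMIs.

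A further 4 chains had more UMIs in E16 mesenchyme but were too sparse for the ratio rule. Col8a2, a network-forming chain, had 19 and 5 UMIs. The transmembrane chains Col25a1, Col23a1 and Col13a1 had 13 and 2, 11 and 3, and 9 and 4 UMIs. The whole mesenchyme sum was larger in P4, at 811802 UMIs against 638654 in E16.

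Genes that modify, secrete, cross-link or degrade collagen were taken from a list of 44, of which 32 could be measured in mesenchyme. By the same 2-fold rule 7 of these (21.9%) were higher in P4, against 6.93% of all genes, and 2 (6.25%) were lower, against 13.6%, and the median difference was 0.40 on the log2 scale against -0.18 for all genes. Loxl1, a cross-linking oxidase tied to elastic fibres, went from 76.7 to 445 CPM, 5.80 times higher (4.29 to 7.98). Mmp2, a gelatinase, was 4.52 times higher (3.27 to 6.38), and Pcolce, which speeds removal of the C-terminal propeptide of procollagen, 3.26 times (2.91 to 3.67). Sparc, a collagen-binding matrix protein, went from 2391 to 6211 CPM, 2.60 times higher (2.45 to 2.75). Adamts2, which removes the N-terminal propeptide, was 2.31 times higher (1.51 to 3.62), and Loxl3 and P4ha2 were 2.97 and 2.11 times higher. In contrast Lox, the classical lysyl oxidase, went from 147 to 66.5 CPM, 2.21-fold lower (1.57 to 3.15). P4ha1, a catalytic subunit of prolyl 4-hydroxylase, was 2.09-fold lower (1.57 to 2.80). Serpinh1, the collagen chaperone HSP47, was within 2-fold at 1.31 (1.25 to 1.38), and P4hb and Plod1 lay at 0.93 and 1.01.

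Mesenchyme-like cells of each library were divided into sub-clusters, again without collagen genes, and the sub-clusters differed in collagen share. Among the 6 P4 sub-clusters the share ran from 1.83% in sub-cluster 5 (50 cells, led by A230065H16Rik) to 5.94% in sub-cluster 3 (19 cells, with Pi16 and Akr1c18 among its leading genes), 3.24 times as much. Among the 5 E16 sub-clusters of at least 10 cells the share ran from 1.14% to 2.13%, and the highest was sub-cluster 5 (14 cells, led by Clec3b and Dpt). Median UMIs per cell were 3490 and 3991 in P4 sub-clusters 5 and 3. As description of those cells, Kera was at 1337 CPM in P4 sub-cluster 5 and 26.0 CPM in sub-cluster 3, while Ly6a was at 5.64 and 3738 CPM.

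Individual chains followed opposite gradients across the P4 sub-clusters. Col1a1 ran from 4715 CPM in sub-cluster 5 to 18000 CPM in sub-cluster 3, and Col3a1 from 6080 to 26453 CPM. Col14a1 was at 860 CPM in sub-cluster 3 and 790 CPM in sub-cluster 2, but at 152 CPM in sub-cluster 5. Col15a1 did the reverse, with 771 CPM in sub-cluster 1, 666 CPM in sub-cluster 5 and 13.0 CPM in sub-cluster 3. Col26a1 was at 226 CPM in sub-cluster 1 with 0 UMIs in sub-cluster 3, and Col4a1 was at 338 CPM in sub-cluster 5 and 78.1 CPM in sub-cluster 3. Col6a1 and Col6a3 varied less, from 899 to 1675 CPM and from 245 to 443 CPM. Since the cells were clustered on genes that vary with collagen, these levels are a description.

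**Figure D3:**
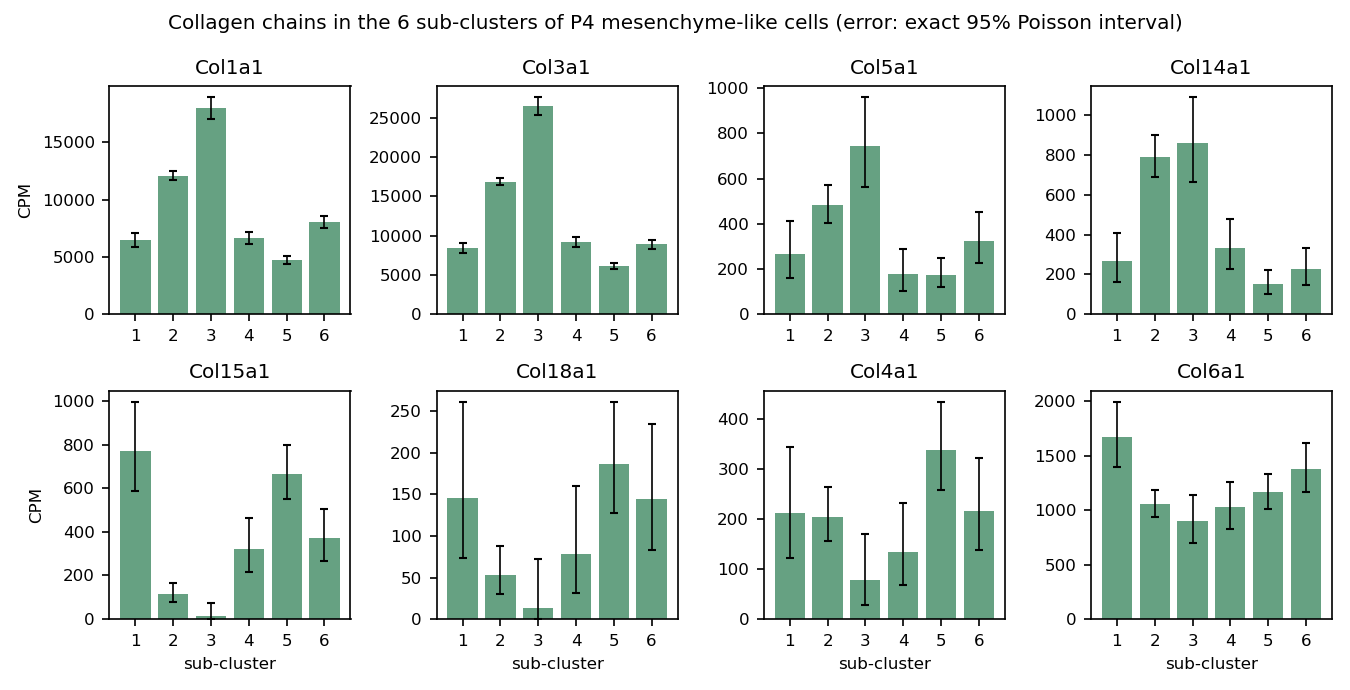
Levels of 8 collagen chains in the sub-clusters of P4 mesenchyme-like cells. Each panel is 1 gene with its own linear axis in CPM starting at 0, bars are sub-cluster sums and error bars exact 95% Poisson intervals; sub-cluster 3 is highest for Col1a1 and Col3a1 and lowest for Col15a1.

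The same counts were also compared from cell to cell, which is no independent observation of the sub-cluster levels. Over the 177 P4 mesenchyme cells, which share a library and whose log-normalised values share depth, Spearman's rho was 0.81 between Col1a1 and Col1a2 and 0.79 between Col1a1 and Col3a1. It was 0.47 between Col1a1 and Col14a1 and -0.43 between Col1a1 and Col15a1. Over the 98 E16 cells the 4 values were 0.70, 0.65, 0.28 and -0.25. Col4a1 and Col4a2, whose starts face each other, gave 0.27 in E16 and 0.17 in P4 mesenchyme. In the epithelial-like cells of either stage they gave 0.53. Col4a2 was sparse, with UMIs in 31 of the 98 E16 and 46 of the 177 P4 mesenchyme cells, and in 10 P4 epithelial-like cells. In E16 epithelium the cluster led by Epcam and Perp (median 10799 UMIs) held 76 of 83 Col4a1 and 53 of 57 Col4a2 UMIs. Whether the facing starts play a part in these values was not tested.

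Epithelial-like cells at E16 held a set of chains best known from cartilage. Col9a1, a FACIT chain of type IX collagen, had 378 UMIs in E16 epithelium and 43 in P4, or 603 and 58.4 CPM, 10.3-fold lower in P4 (7.52 to 14.5). Its UMIs came from 59 of 87 E16 cells and 20 of 98 P4 cells. Col9a3, its partner chain, had 130 and 40 UMIs, 3.82-fold lower in P4 (2.66 to 5.59). Col9a2, the third chain of type IX, had 7 and 4 UMIs. Col2a1, the type II chain whose fibrils carry type IX in cartilage, had 32 UMIs in 20 E16 cells and 0 in P4. With the 0 set to a floor of 3 counts (4.07 CPM) it was 12.5-fold lower in P4, with an interval that starts at 9.62. Of 8 chondrocyte markers found, Acan, Matn1, Matn3, Comp and Hapln1 had 0 UMIs in the epithelial-like cells of both libraries. The other 3, Sox9, Matn4 and Lect1, had UMIs in both, and the list summed to 79.8 CPM in E16 epithelium and 168 CPM in P4 epithelium.

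Of the 10 members measured in epithelial-like cells, 5 passed the 2-fold rule as lower in P4, against 27.4% of 5007 genes, and 4 as higher, against 7.09%. The median of all measured genes was -0.53 on the log2 scale. The lower ones were Col9a1, Col9a3, Col2a1, Col4a1 and Col4a2. Col4a1 went from 132 to 58.4 CPM, 2.27-fold lower (1.55 to 3.36), and Col4a2 from 90.9 to 32.6 CPM, 2.79-fold lower (1.70 to 4.70). The type IV chains Col4a5 and Col4a6, which form a trimer of epithelial basement membranes, had 10 and 14 UMIs in E16 and 1 and 0 in P4.

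Most of the E16 epithelial signal came from 1 cluster. Cluster 3 (31 of the 87 cells, led by Epcam and Perp) held 322 of the 378 Col9a1 UMIs, 107 of 130 for Col9a3, 29 of 32 for Col2a1, 76 of 83 for Col4a1 and 53 of 57 for Col4a2. Its cells were also deep, with a median of 10799 UMIs, and its Col9a1 level was 752 CPM (672 to 839). P4 had 3 cells in this cluster. In cluster 0, which held 48 E16 and 34 P4 cells, Col9a1 was measured at 354 CPM (267 to 461) before birth and 121 CPM (55.1 to 229) after it, a ratio of 0.34 (0.15 to 0.69). Col9a3 in the same cluster gave 122 and 174 CPM, a ratio of 1.42 whose interval spans 1 (0.65 to 3.04). Cluster 9, with 8 E16 and 34 P4 cells, held 1 and 14 Col9a1 UMIs, or 23.1 and 40.5 CPM, too few for the ratio rule. Type IV chains were as sparse in both: Col4a1 had 6 and 4 UMIs in cluster 0 (38.6 and 53.6 CPM) and 1 and 16 in cluster 9 (23.1 and 46.3 CPM). Within clusters held by both libraries, a lower P4 level was thus measured for Col9a1 in cluster 0, and none was detectable for Col9a3 or Col4a1.

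The 4 chains that were higher in P4 epithelium were Col1a1, Col1a2, Col3a1 and Col5a2, and 1 cell carried much of each. That cell, in cluster 16, held 301 of the 825 collagen UMIs of the class, with 66 of 141 Col1a1 UMIs, 73 of 155 for Col1a2, 77 of 212 for Col3a1 and 59 of 61 for Col5a2. It also held 121 UMIs of mesenchyme markers and 25 of epithelial markers. Without it the P4 levels were 103 CPM for Col1a1, 113 for Col1a2, 186 for Col3a1 and 2.75 for Col5a2, beside 49.4, 47.9, 76.6 and 12.8 CPM in all E16 epithelial cells. With the highest-collagen cell of each sum left out, the log2 difference of Col5a2 turned from 2.70 to -2.27. Col1a1, Col1a2 and Col3a1 remained higher at 1.05, 1.34 and 1.22.

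Anchoring chains were sparse and epithelial. Col17a1, the hemidesmosome collagen, had 9 UMIs in E16 and 8 in P4, and Col7a1, the anchoring fibril chain, 11 and 5. Neither had a UMI in mesenchyme-like cells.

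**Figure D4:**
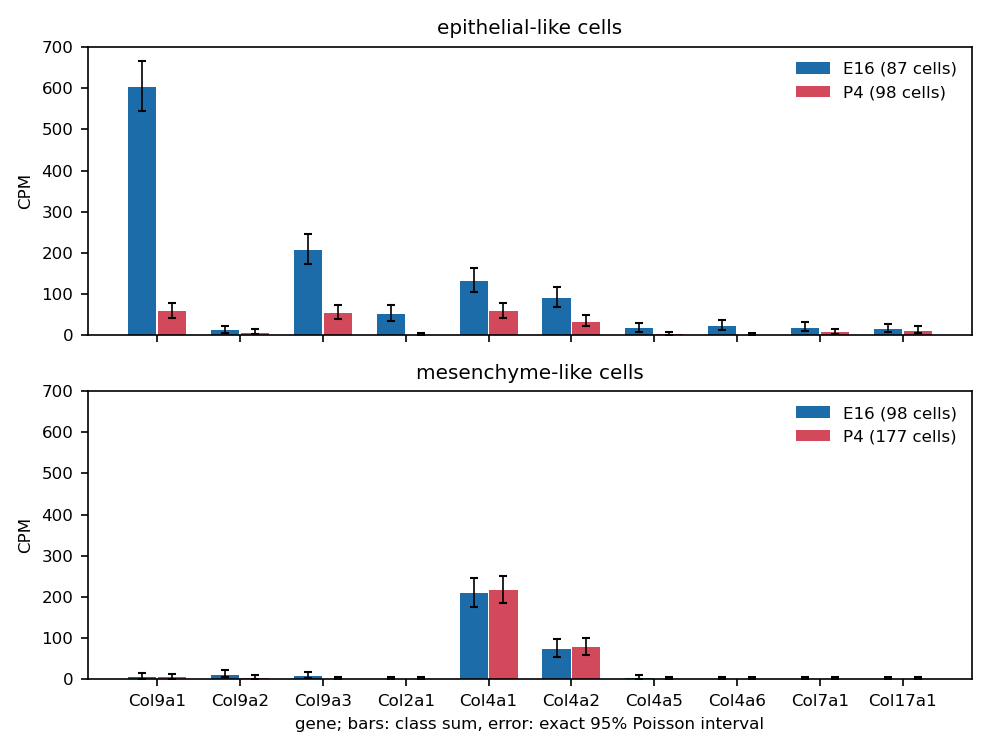
Levels of type IX, II, IV, VII and XVII chains in epithelial-like (top) and mesenchyme-like (bottom) cells. Bars are CPM of the class sums on a linear axis starting at 0, blue for E16 and red for P4, with exact 95% Poisson intervals; Col9a1 reaches 603 CPM in E16 epithelium and stays at 5 CPM in mesenchyme.

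Set against epithelium within each library, most measured chains were higher in mesenchyme. In E16, 17 of 22 members were at least 2-fold higher in mesenchyme (background 20.2% of 5629 genes) and 3 at least 2-fold lower (background 14.8%). Those 3 were Col9a1, which was 128-fold higher in epithelium (43.6 to 625), Col9a3, 26.5-fold higher (11.1 to 82.9), and Col2a1. Against the floor Col2a1 was 10.9-fold higher in epithelium, with an interval that starts at 8.34. Col1a1 was 78.7 times higher in mesenchyme (55.3 to 116) and Col6a1 36.5 times (21.1 to 69.0). Col4a1 and Col4a2 lay within 2-fold, at 1.57 and 0.81. In P4, 18 of 20 members were higher in mesenchyme (background 29.4% of 5376 genes) and 2 lower (background 11.4%). The latter were Col9a1, 11.8-fold higher in epithelium (4.31 to 45.4), and Col9a3. Against the floor Col9a3 was 14.7-fold higher in epithelium, with an interval that starts at 11.4. By P4 the mesenchyme exceeded epithelium in Col4a1 by 3.71 times (2.65 to 5.31) and in Col4a2 by 2.38 times (1.47 to 3.99).

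In E16 basement membrane chains were highest in endothelial-like cells, at 2333 CPM (2038 to 2660), and in P4 they were at 1009 CPM there (806 to 1248) and at 2244 CPM in mural cells (1743 to 2845). Col4a2 gave 41 of the 68 UMIs behind the P4 mural level, and 1 cell held 90.2% of those 41. Col4a1 was at 1500 CPM in the 10 endothelial-like cells of E16 and 677 CPM in the 22 of P4, 2.22-fold lower in P4 (1.62 to 3.07). Col4a2 was at 833 and 320 CPM, 2.60-fold lower (1.66 to 4.19), Col15a1 at 354 and 190 CPM and Col18a1 at 292 and 131 CPM. By the 2-fold rule 6 of 7 measured chains were lower in P4 (background 11.1% of 1173 genes) and 0 were higher (background 12.4%). The 3 type I and III chains among them rest on 1 E16 cell, which held 45 of 52 Col1a1 UMIs and 55 of 60 Col3a1 UMIs beside 82 UMIs of mesenchyme markers. Single cells also weighed on type IV, since 1 cell held 35.4% of the Col4a1 UMIs in E16 and 1 cell held 36.8% in P4. The libraries also filled the endothelial-like clusters differently. Cluster 8 held 8 E16 and 11 P4 cells and cluster 10 held 2 and 11, and stage ratios within them are not given.

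Mural or smooth muscle-like and glial-like cells had type I and III levels far above those of epithelium. In mural cells Col1a1 was at 2900 and 3663 CPM, and Col3a1 at 1994 and 4884 CPM, 2.45 times higher in P4 (1.94 to 3.09). By the 2-fold rule 4 of the 6 chains measured there were higher in P4 (background 9.45% of 677 genes) and 0 were lower (background 13.3%). Col4a2 was 5.50 times higher, but 1 P4 cell held 90.2% of its 41 UMIs. Another P4 cell held 46.8% of the Col1a1, 49.3% of the Col1a2 and 43.2% of the Col3a1 UMIs, with 53 mesenchyme marker UMIs. The E16 cell richest in collagen held 41.5%, 28.7% and 31.8% of these, with 39 marker UMIs. With both cells left out, Col1a1 stood at 1845 (E16) and 2706 CPM (P4). Col1a2 then gave 873 and 1743 CPM, just under 2-fold, and Col3a1 1479 and 3852 CPM. For Col6a1, 1 P4 cell held 45% of its 20 UMIs. The mesenchyme marker list reached 3431 CPM in mural cells of E16 and 4323 CPM in those of P4, and its part in these levels was not tested. The 6 glial-like cells of E16 held Col1a1 at 2525 CPM, Col9a3 at 476 CPM (20 UMIs), Col9a1 at 310 CPM (13 UMIs) and Col11a1 at 238 CPM (10 UMIs). Their mesenchyme marker list stood at 143 CPM, with 9 of 14 markers at 0.

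Col1a1 and Col3a1 were also found in P4 cells outside the mesenchyme, among them classes that should lack both. Cells outside the mesenchyme include 9 mural and 4 glial-like cells, where Col1a1 was at 3663 and 1671 CPM. In the 229 P4 cells outside the mesenchyme, Col1a1 stood at 284 CPM (255 to 317) and Col3a1 at 420 CPM (384 to 459), against 9359 and 12695 CPM in mesenchyme. Without the cell with the most UMIs of the gene in each class they were 165 and 274 CPM. Leaving out mural and glial-like cells, the levels were 168 and 262 CPM in 216 cells, and the single epithelial cell described above gave 66 of those 187 Col1a1 UMIs and 77 of those 292 Col3a1 UMIs. Macrophage-like cells gave 122 and 209 CPM, Cd74 myeloid-like cells 108 and 195, T or innate lymphoid-like cells 66.6 and 200, and erythroid-like cells 159 and 202. Endothelial-like cells gave 107 and 226 CPM. P4 barcodes under 200 genes gave 107 and 143 CPM, with intervals of 84.9 to 134 and 117 to 173 CPM. Mast-like cells gave 227 and 340 CPM, from 2 and 3 UMIs in 4 cells. In E16 the barcodes under 200 genes were lower, at 65.0 CPM for Col1a1 and 42.1 CPM for Col3a1. E16 cells outside the mesenchyme, mural and glial-like classes held 114 and 136 CPM.

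**Figure D5:**
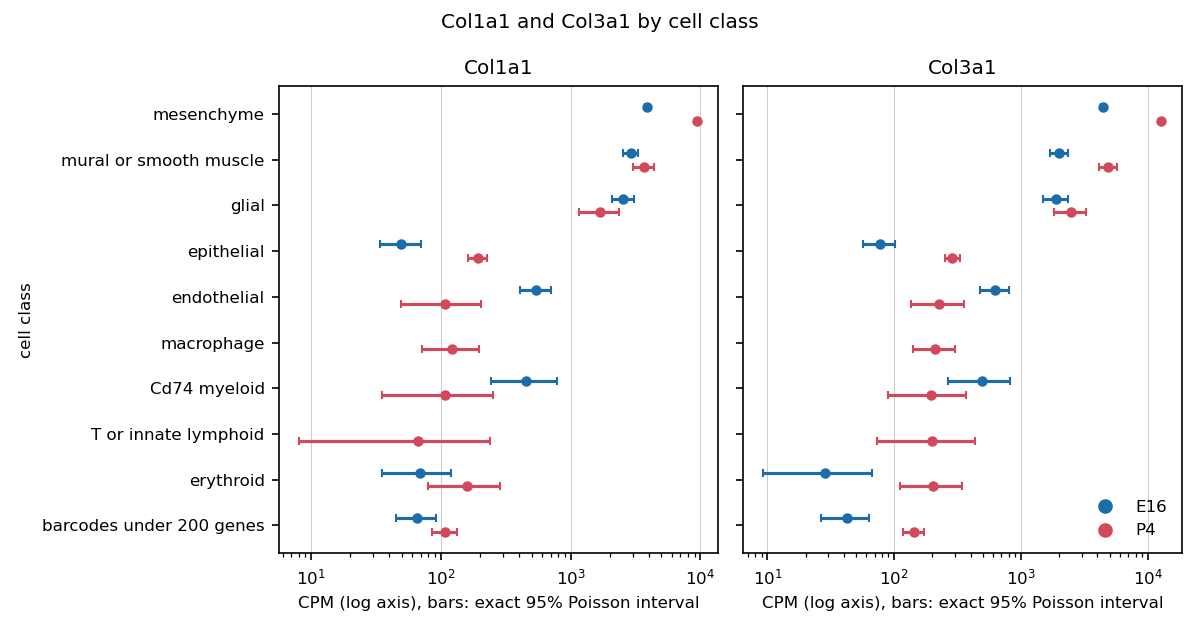
Levels of Col1a1 and Col3a1 by cell class. Points are CPM of class sums on a log axis with exact 95% Poisson intervals, blue for E16 and red for P4; classes with fewer than 4 cells are not drawn, and barcodes under 200 genes are the bottom row. Macrophage, myeloid, lymphoid, erythroid and endothelial classes of P4 lie between 66.6 and 226 CPM, well under mesenchyme, mural and glial-like cells.

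The share of cells with a UMI outside P4 mesenchyme, mural and glial-like cells included, was 37.1% for Col1a1 and 50.7% for Col3a1. After each cell was thinned to 1342 UMIs, which left out 41 P4 and 15 E16 cells, it was 16.8% (11.8% to 22.9%) and 29.5% (23.1% to 36.5%). In macrophage-like cells, which should lack both genes, the thinned shares were 15.9% and 20.5% (median depth 2887 UMIs), and in P4 epithelial-like cells 8.0% and 25.3% (median 3371 UMIs). The epithelial intervals, 3.0% to 16.6% and 16% to 36.7%, overlap those of macrophages, 6.6% to 30.1% and 9.8% to 35.3%. Thinned to 1000 UMIs, the shares were 5.7% and 14.9% in epithelial-like cells and 19.6% and 23.9% in macrophages, so the order for Col3a1 turned with the thinning. At this depth neither gene was detectable in epithelial-like cells above that background. The levels gave the same picture, since without the single high cell the epithelial class was at 103 and 186 CPM and macrophage-like cells were at 122 and 209 CPM. By contrast Col9a1 was found in 41.6% of thinned E16 epithelial cells (30.4% to 53.4%) and in 1.04% of thinned E16 mesenchyme cells, with 0 of 25 erythroid cells.

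The balance of chains outside the mesenchyme was not the same as within it. Col1a1 per Col1a2 UMI was 1.75 in P4 mesenchyme (1.69 to 1.82) and 1.02 in P4 cells outside mesenchyme, mural and glial-like classes (0.82 to 1.25). Barcodes under 200 genes gave 1.41 (0.99 to 2.02). The single P4 epithelial cell described above entered this sum with 66 and 73 UMIs, and the other 97 P4 epithelial cells gave 0.91 (0.66 to 1.27). Col1a1 per Col3a1 UMI was 0.74 in mesenchyme, 0.64 outside (0.53 to 0.77) and 0.75 in barcodes under 200 genes (0.55 to 1.02).

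In total 21 members had fewer than 30 UMIs over the kept cells of both libraries. Besides the 4 at 0 and the sparse chains given above, Col9a2 had 24 UMIs, Col24a1 and Col6a5 had 9 each, Col4a4 had 5 and Col4a3 had 4. Col20a1 and Col22a1 had 2 each and Col19a1 and Col8a1 had 1 each. For these genes no difference between stages or classes was detectable at this depth.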

How the data were processed

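Per the submitters' processing notes, the deposited UMI counts were made with Cell Ranger on genome build mm10; further settings were not given in the sources consulted. The authors deposited whole-number counts per gene and barcode for 1 library of each stage. Barcodes with 200 or more genes were kept. For clustering, each cell was scaled to 10000 counts and log-transformed. Clusters came from 2000 variable genes without collagens, 20 principal components, 15 neighbours and the Leiden method at resolution 1 (scanpy 1.11.5, igraph 0.11.9). Names needed at least 3 markers in 20% of cells. Sums over a class gave CPM. Ratios carry exact conditional 95% intervals, shares exact binomial ones and levels exact Poisson ones; sums of 0 were set to 3 counts. A gene was measured with 30 or more UMIs over both sums and called at 2-fold. Every member was accounted for, and those named passed 30 UMIs over both libraries in a class or 10 UMIs in their highest class; sparse ones are named with counts. All measured processing genes past 2-fold were named, with Serpinh1, P4hb and Plod1 added from those within 2-fold. UMIs are counted after amplification, and intervals cover counting error only. Scripts were tested on simulated data. The members and lists were chosen with earlier results of these data known.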

Additional observations from a re-analysis of the deposited data

Results flagged for a closer look

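The stage ratio of summed collagen was above 1 in mesenchyme-like cells and below 1 in 2 other classes. The P4 over E16 ratio of mesenchyme-like cells (2.37) was 3.16 times that of epithelial-like cells (0.749) and 5.82 times that of endothelial-like cells (0.407). For epithelium the ratio was 0.982 with genes above 1% of UMIs left out of the totals and 1.66 (1.04 to 2.80) within cluster 9, and the median of all measured epithelial genes was -0.53 on the log2 scale. For endothelium 1 E16 cell gave 172 of 482 collagen UMIs, and the libraries filled its clusters 8 and 10 differently. With 1 library per stage the difference between classes was not tested.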

How the results depend on the processing

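Of 128 recomputed summary values 98 stayed within 1.5 times the reported count or within the counting interval, and 30 moved. Among these values a change of direction could be scored only for a summed ratio past 2-fold, that of mesenchyme, which kept its direction. The summed ratio in epithelium turned from 0.749 to 1.66 in cluster 9 alone. Of 160 single-chain values in mesenchyme 151 stayed and 9 moved; of 90 in epithelium 72 stayed, 16 moved and 2 reversed. Col5a2 in epithelium turned to a log2 difference of -2.27 without the highest-collagen cell of each sum and to -1.53 without the Dcpp-led cluster. The cause of the other moves was not tested.

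In mesenchyme the chains higher in P4 numbered 5 with each library clustered alone, and the lower ones 2 there and at resolution 0.5, 0 at a minimum of 100 UMIs and 5 at a minimum of 10. The summed ratio was 2.21 at resolution 0.5, 2.05 with each library alone, and 1.23, 1.30 and 1.07 in clusters 2, 7 and 11 alone. In epithelium the lower chains numbered 3 at 100 UMIs and without the Dcpp-led cluster, and 12 at 10 UMIs. The summed ratio was 0.982 with genes above 1% left out of totals and 0.550 without the Dcpp-led cluster. Chains lower in mesenchyme than in epithelium numbered 6 in E16 at 10 UMIs, and 0 in P4 at 100 UMIs and with each library alone. The share of all genes called was not computed for these changed settings. A changed minimum also changes how many chains can be called, so these counts have no background to set them against. Outside P4 mesenchyme Col1a1 stood at 245, 385 and 168 CPM with 500 or more genes, at resolution 0.5 and with each library alone. Col3a1 stood at 371, 550 and 263 CPM in these settings. Without the cell with the most UMIs of the gene in each class, Col1a1 was at 165 CPM and Col3a1 at 274 CPM. The thinned share of Col3a1 was 22.6% at 1000 UMIs. At sub-cluster resolution 0.5 the highest collagen share was 1.39 times the lowest in E16 and 2.93 times in P4.

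No paired analysis was possible because each stage has 1 library. Leaving out the Dcpp-led cluster and taking clusters singly were chosen after seeing the data. Chains under 30 UMIs, and classes of fewer than 25 cells, are limited by depth.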
